A study of Mus musculus with 18 samples.

Results

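Protein-coding promoter regions were examined in ATAC-seq peak lists from lung endothelial cells (ECs), the cells that line blood vessels. ATAC-seq inserts adapters into accessible DNA with the Tn5 transposase, so that a peak marks a stretch of open chromatin. Peaks on chromosomes 1 to 19, X and Y from all 18 lists were joined into regions if they shared 1 bp or more, and regions found in 2 or more lists were kept. A region was a promoter region when its midpoint lay from 1000 bp upstream to 100 bp downstream of the transcription start site (TSS) of a protein-coding RefSeq transcript on mm10. This gave 9504 promoter regions among 47338 regions, and 37834 other regions. The rule used position and the presence of a peak in 2 lists, but no difference between groups.

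The mice were of the FVB strain and, per the study's methods, carried a Col1α1-GFP reporter, which marks collagen-producing cells, in all groups, and were female and male. Aged mice were 18 months old and young mice 2 months old, and each received bleomycin, an agent that injures the lung and causes fibrosis, at about 1 U/kg, or PBS (Sham) into the trachea. ECs positive for CD31 and negative for CD45, CD326 and GFP were sorted 30 days later, about 50000 per library. Young mice gave 5 Sham and 4 Bleo samples, and aged mice 4 Sham and 5 Bleo samples. Cells were sorted by surface markers, so that a changed share of an EC subtype and a changed promoter within a subtype cannot be told apart in these bulk samples.

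A promoter is the stretch around a TSS where the transcription machinery assembles, and it is usually kept free of nucleosomes in cells that use the gene. Most mammalian promoters are rich in CpG dinucleotides and open in nearly every cell type, while promoters poor in CpG tend to serve genes of particular cell types or states. Known promoter elements include the GC box, bound by Sp1 and its relatives, the CCAAT box, bound by NF-Y, the TATA box and the core bound by ETS factors, a family that includes ERG and FLI1 in ECs.

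The 100 bases upstream of the TSS are printed for 10 promoters that carry the results below, read 5′ to 3′ on the strand of the gene from RefSeq on build GRCm38.p6. Capitals mark a match to the GC box GGGCGG, the CCAAT box, the ETS core CGGAAG, the AP-1 motif TGANTCA, the TATA box TATAAA or the NRF1 motif GCATGCGC, each on either strand. The first 3 were open in every sample: Kdr (VEGF receptor 2) at chr5:75978456-75978555 on the minus strand, Hsd17b7 (cholesterol synthesis) at chr1:169969206-169969305 on the minus strand, which is among the strongest promoters, and Cxcl10 (an interferon-induced chemokine) at chr5:92348890-92348989 on the minus strand.
Kdr: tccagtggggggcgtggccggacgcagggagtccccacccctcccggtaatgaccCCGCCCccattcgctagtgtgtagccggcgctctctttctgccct
Hsd17b7: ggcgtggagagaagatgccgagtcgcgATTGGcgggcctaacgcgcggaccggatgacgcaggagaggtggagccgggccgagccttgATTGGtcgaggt
Cxcl10: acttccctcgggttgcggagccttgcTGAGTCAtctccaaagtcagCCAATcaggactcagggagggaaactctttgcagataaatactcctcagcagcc
The next 5 varied in presence between groups. These are Ildr2 (a membrane protein of the immunoglobulin family) at chr1:166254039-166254138 on the plus strand, H3c11 (a replication-dependent histone H3) at chr13:21783398-21783497 on the minus strand, Klhl4 (a kelch-repeat protein) at chrX:114474233-114474332 on the plus strand, Plac8 at chr5:100572206-100572305 on the minus strand and Pf4 (platelet factor 4, a chemokine of platelets) at chr5:90772335-90772434 on the plus strand.
Ildr2: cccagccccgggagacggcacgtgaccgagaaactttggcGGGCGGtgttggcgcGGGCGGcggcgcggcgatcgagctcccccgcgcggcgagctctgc
H3c11: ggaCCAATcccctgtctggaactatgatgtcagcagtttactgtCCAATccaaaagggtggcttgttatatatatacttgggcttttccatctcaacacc
Klhl4: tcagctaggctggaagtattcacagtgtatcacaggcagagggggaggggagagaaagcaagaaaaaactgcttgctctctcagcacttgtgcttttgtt
Plac8: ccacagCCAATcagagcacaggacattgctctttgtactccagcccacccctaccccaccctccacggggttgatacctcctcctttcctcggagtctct
Pf4: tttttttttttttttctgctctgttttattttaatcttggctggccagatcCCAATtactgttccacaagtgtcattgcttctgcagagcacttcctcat
The last pair was open in every sample but differed in strength, Slit2 (a secreted guidance ligand of ROBO receptors) at chr5:47983055-47983154 on the plus strand and Tmem107 (a protein of the ciliary transition zone) at chr11:69070709-69070808 on the plus strand.
Slit2: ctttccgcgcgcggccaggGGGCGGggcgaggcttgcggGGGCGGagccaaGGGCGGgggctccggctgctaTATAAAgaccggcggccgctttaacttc
Tmem107: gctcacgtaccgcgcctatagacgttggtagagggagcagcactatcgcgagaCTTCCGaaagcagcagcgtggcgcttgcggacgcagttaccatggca
In 300-base windows at the midpoints, GGGCGG was present in 72.1% of promoter regions and 28.8% of all regions, CGGAAG in 33.1% and 15.8%, and CCAAT in 36.2% and 31.1%. TGANTCA was present in 3.67% of promoter regions and 11.1% of all regions, TATAAA in 4.20% and 10.8%, and GCATGCGC in 5.08% and 1.76%. These are matches to letters and not binding sites.

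The lists held 593980 peaks, from 21050 in Aged Bleo 4 to 40883 in Aged Bleo 2. Young lists held 35888 ± 3205 peaks (SD, n = 9) and aged lists 30110 ± 6185 (n = 9), with Aged Bleo 1 and 2 at 37595 and 40883. Read totals are not in the lists, and the background around peaks, a measure of depth, was 1.26 to 1.78 fragments in young and 1.02 to 1.60 in aged samples. It was taken near the low end of the values over the peaks of each list, so it is not the typical background of a peak. The labels give no sequencing lane, and lanes were inferred here from codes (L6, L7 and L8) in the deposited names. Aged Sham 4 was run in lane 6 with all Aged Bleo samples, while Aged Sham 1 to 3 shared lane 7 with Young Bleo 1 to 3. All Young Sham samples and Young Bleo 4 were in lane 8, so that no lane held both Young Sham and aged samples. The number of peaks, the background and the lane therefore move with the groups, and lane cannot be told apart from group for the comparisons of aged samples with Young Sham. Within each age treatment also moved with lane. Only Young Bleo 4 and Aged Sham 4 shared a lane with the other treatment of their age. Of the marker lists, 30 of 35 pan-endothelial genes had a promoter region, against 0 of 15 leukocyte, 0 of 4 mesothelial, 2 of 14 epithelial and 2 of 14 fibroblast and mural genes.

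Promoter regions were far more often shared by all samples than other regions. A peak was present in all 18 samples at 7642 promoter regions (80.4%) and at 9790 other regions (25.9%), while 625 promoter regions (6.58%) and 12221 other regions (32.3%) were in 2 to 6 lists. In each sample the share of promoter regions with a peak exceeded that of other regions, with means of 91.5% and 61.2% and a difference of 30.3 ± 10.2 percentage points (SD, n = 18), higher in 18 of 18 samples (two-sided exact sign-flip permutation test, p = 7.63e-06, the smallest it can give). The 9504 regions lay at 9739 of 21000 protein-coding genes (46.4%), and 8231 genes had a promoter region present in every sample. A further 2198 genes had a TSS inside a region whose midpoint lay outside the window, among them Tek, Emcn, Klf2, Lyl1, Actb and Junb, so that the absence of a gene here does not mean a closed promoter.

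**Figure D1:**
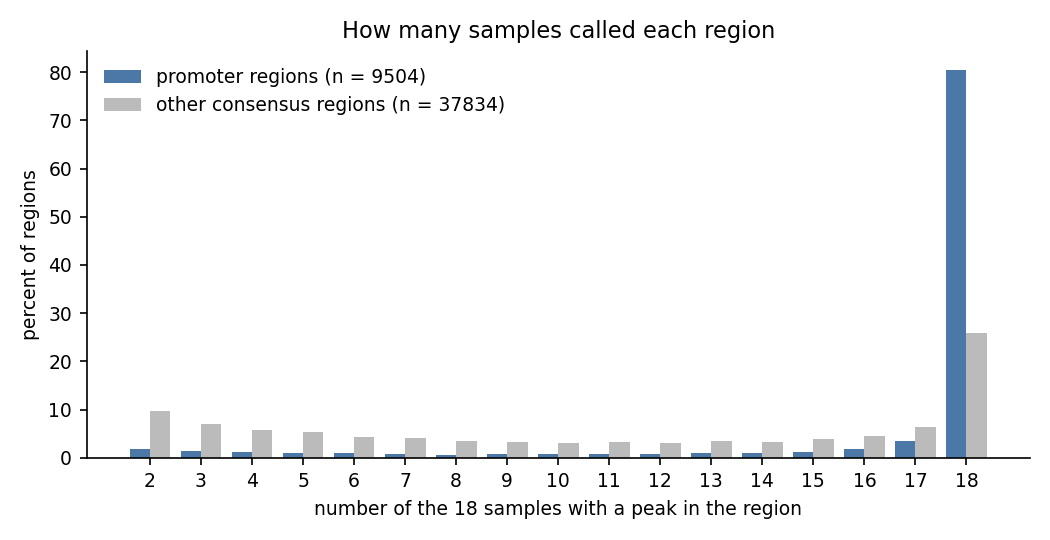
Share of regions (y axis, percent) by the number of lists with a peak (x axis, 2 to 18) for promoter regions and other regions. Of promoter regions 80.4% had a peak in all 18 lists, against 25.9% of other regions.

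EC identity promoters were called in every sample about as often as promoters in general. The 30 pan-endothelial genes had 32 promoter regions, of which 27 (84.4%, against 80.4% of all promoter regions) had a peak in all 18 samples. Of the 32, 0 varied between the 4 groups at an exact p of at most 0.05, against 2.62% of promoter regions and 9.52% of all regions. Genes with a promoter peak in every sample included Cdh5 (VE-cadherin), Kdr, Tie1, Erg, Fli1, Sox18, Nos3 (endothelial nitric oxide synthase) and Cd34. The 5 regions not in every sample included those of Pecam1 (CD31, 17 of 18 samples), Sox17 (16 of 18), Icam2 (9 of 18) and Egfl7 (2 of 18). Among the 25 proteasome genes with a promoter region, 26 of 27 regions were in every sample, and among the 21 cell cycle genes 21 of 23 regions. Housekeeping genes had 14 of 15 regions in every sample, and in these 3 lists 0 regions varied between groups.

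The other lists ranged widely around that share, which was not tested list by list. Of all promoter regions 80.4% were in every sample and 2.62% varied, and 9.52% of all regions varied. Arterial, venous and lymphatic genes had 7 of 15 regions (46.7%) in every sample, with 2 variable between groups, and aerocyte genes, which mark the large capillary cells of gas exchange, had 2 of 7 (28.6%) with 1 variable. General capillary genes had 5 of 7 regions in every sample with 1 variable, innate immunity and interferon genes 9 of 15 with 1 variable, and immediate early genes 11 of 13 with 1 variable. Basement membrane genes had 8 of 11, angiogenic signalling genes 23 of 25 and senescence and cell-cycle inhibitor genes 9 of 10, with 0 variable in each.

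Promoter peaks were wide and strong. Peaks found in 1 list only count here as other peaks, wherever they lie, while promoter peaks lie in regions found in 2 or more lists. The median width of promoter peaks was 543 ± 40.5 bp per sample and that of other peaks 316 ± 29.2 bp, a difference of 227 ± 19.8 bp (SD, n = 18), larger in 18 of 18 samples (exact sign-flip permutation test, p = 7.63e-06). Strength was taken as the fold enrichment of a peak over its local background, ranked as a percentile among all peaks of the same list, since fold enrichment is not scaled between lists. The median promoter peak stood at the 78.8 ± 2.13 percentile and the median other peak at 40.3 ± 1.38, a difference of 38.5 ± 0.906 percentile points (SD, n = 18), again in 18 of 18 samples (exact sign-flip permutation test, p = 7.63e-06). Promoter peaks made up 27.6 ± 4.35% of a list (SD, n = 18) but 75.1 ± 3.796% of its peaks above the 90th percentile. Fragments at the summit were solved for 93.8% (Young Bleo 3) to 98.1% (Aged Bleo 4) of all peaks in a list. Peaks with the smallest p were left out. Among the promoter peaks solved, the median was 54 to 94 fragments per sample, which is not the median of all promoter peaks.

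Among the promoter regions themselves, width had a median of 677 bp, with quartiles at 540 and 821 bp and a range of 157 to 2099 bp, and 944 (9.93%) were over 1000 bp wide, against 2.53% of other regions. Each region's median percentile over its lists had a median of 77.0, and 2449 promoter regions (25.8%) lay above the 90th percentile, against 710 other regions (1.88%). Width and strength did not have the same leaders. The 5 widest regions were those of Cflar (an inhibitor of caspase-8, chr1:58711291-58713389, 2099 bp), Agbl5 (a tubulin deglutamylase, chr5:30887292-30889329, 2038 bp), Stmn1 (stathmin, 1980 bp), Usf2 (a basic helix-loop-helix factor, 1974 bp) and Naa50 (an acetyltransferase, 1958 bp, shared with Atp6v1a), at median percentiles from 25.2 for Cflar to 75.5 for Naa50. The peak width inside these regions was smaller, a median of 498.5 bp for Cflar and 1459.5 bp for Agbl5, since a merged region can join several peaks.

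The 5 strongest promoters were those of Gm14410, Abhd18, Gm14326, Ddx10 and Hsd17b7. Hsd17b7 (chr1:169968972-169969626) had a median fold enrichment of 33.3 and stood between the 99.79 and 99.96 percentile in the 18 samples. Abhd18 (chr3:40893823-40894513) reached a median fold enrichment of 34.2 and Ddx10, an RNA helicase (chr9:53247864-53248454), 33.5. Gm14410 and Gm14326 belong to a family of near-identical zinc finger genes on chromosome 2, and since read pairs with only 1 unique end were kept, their signal is uncertain. These promoters were 364 to 691 bp wide, well under the widest.

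Whether a promoter was shared by all samples followed its strength, its distance from the TSS and its sequence. A peak is called from the same fragments that set its fold enrichment, so the link to strength is partly built in. Below the 25th percentile 7.67% of 1226 promoter regions were in all samples, from the 25th to the 50th 42.7% of 1121, from the 50th to the 75th percentile 95.9% of 2122, and above that all 2586 regions up to the 90th and all 2449 beyond it. Regions with a midpoint at -1000 to -751 bp from the TSS were in all samples in 38.3% of 235 cases, those at -750 to -501 bp in 41.7% of 266, and those within 100 bp upstream or downstream in 81.0% and 84.3%. Bidirectional promoters, whose window holds starts on both strands, numbered 823 (8.66%), and 95.1% of them were in all samples, against 79.0% of those on 1 strand. CpG-rich promoters, with over 50% GC and an observed-to-expected CpG ratio above 0.6, numbered 7564 (79.6%), and 87.4% were in all samples, against 53.2% of the other 1940. These are descriptions across regions, which are not independent replicates. At the upstream edge of the window, 34.5% of the 87 regions within 100 bp inside it and 40.2% of the 87 within 100 bp outside it were in all samples. At the downstream edge these shares were 84.3% of 3540 and 85.2% of 1493.

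**Figure D2:**
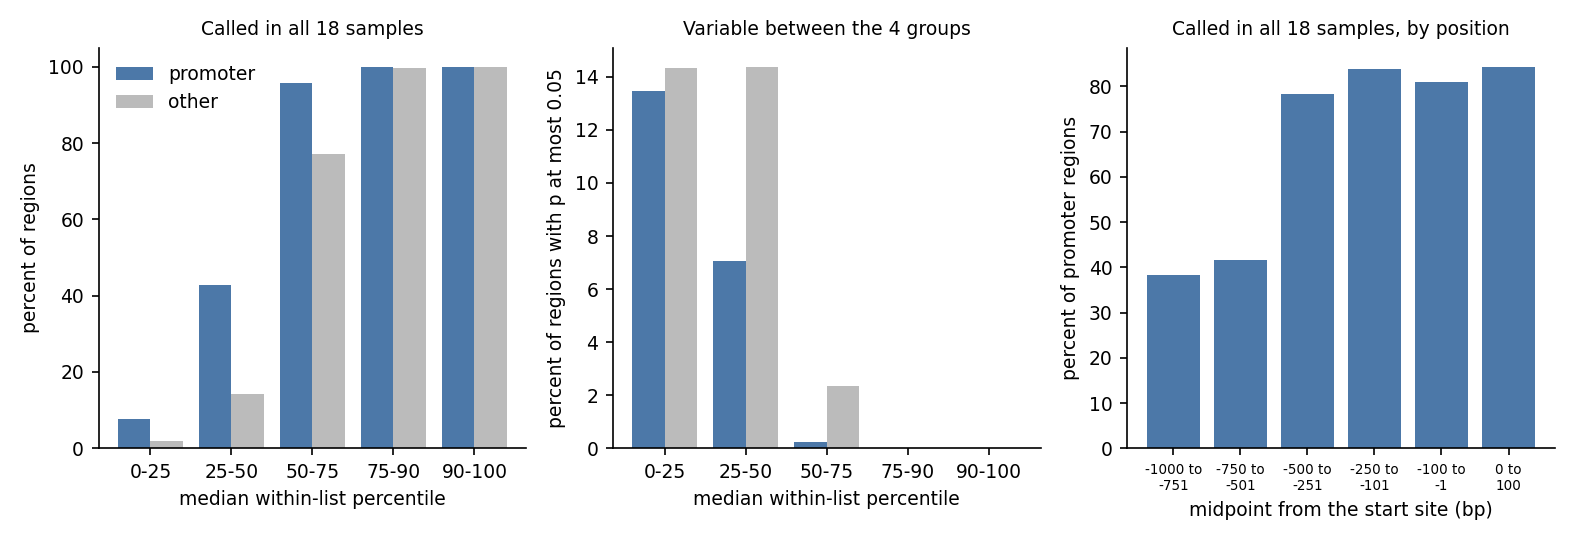
Left and middle, percent of regions in all 18 samples and percent variable between the 4 groups (y axes) by median within-list percentile of fold enrichment (x axis) for promoter and other regions. Right, percent of promoter regions in all 18 samples by position of the midpoint relative to the TSS (bp). Variable promoters lay almost wholly below the 50th percentile, and regions over 500 bp upstream were less often in all samples than those at the TSS (41.7% and 84.3% for 2 of the position classes).

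The presence of each region was then compared between the 4 groups with the Fisher-Freeman-Halton exact test. It gave 249 variable promoter regions (2.62%) at an exact p of at most 0.05, against 9.52% of all regions and 11.3% of other regions. After Benjamini-Hochberg adjustment over all 47338 regions 0 passed, the smallest adjusted p being 0.163, so the 249 are candidates. A region in every list cannot vary, and among the 1862 promoter regions that were not in every list 13.4% varied, against 15.2% of the other regions of that kind. Variable promoters were weak and narrow, with a median percentile of 19.8 and a median width of 404 bp, close to the 20.2 and 399 bp of all promoter regions that were not in every list. By percentile, 165 of them lay below the 25th, 79 between the 25th and the 50th and 5 between the 50th and the 75th, with 0 above. Among the regions not in every list, which alone can vary, 5 of 40 bidirectional promoters varied, 124 of 955 CpG-rich ones (12.98%) and 125 of 907 others (13.8%). Among the chromosomes X had the highest share of variable promoter regions, 14 of 282 (4.96%), followed by chromosome 13 (4.21%). These shares were not tested.

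Variable promoters were chosen for differing between these groups, and were called more often in young than in aged samples when averaged over them. A mean of 66.6% of the 249 had a peak in Young Sham samples, 69.1% in Young Bleo, 30.6% in Aged Sham and 25.4% in Aged Bleo, against 57.1%, 65.8%, 17.6% and 29.2% of the variable other regions. Per sample, 133 to 182 of them had a peak in Young Sham, 147 to 192 in Young Bleo, 67 to 89 in Aged Sham and 16 to 111 in Aged Bleo, and every aged sample was below every young one. The highest share lay in Young Sham alone for 79 regions, in Young Bleo alone for 76, in Aged Sham alone for 12 and in Aged Bleo alone for 0. These are 31.7%, 30.5%, 4.82% and 0% of the 249, against 32.4%, 42.9%, 1.62% and 1.08% of the variable other regions. The 3 most frequent patterns were high in both young groups, low in Aged Sham and intermediate in Aged Bleo (34 regions, 13.7% against 12.4% of variable other regions), high in Young Bleo only (30, 12.05% against 11.8%) and high in Young Sham only (26, 10.4% against 12.2%). Patterns high in both young groups and Aged Sham were more frequent among promoters, with Aged Bleo intermediate in 8.03% against 1.69% and low in 6.02% against 1.60%, and Aged Bleo alone was lowest in 27.7% against 12.2%, which were not tested. When each list was limited to its 21050 strongest peaks, a region could be found for 74 of the 249, and 28 of these varied.

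**Figure D3:**
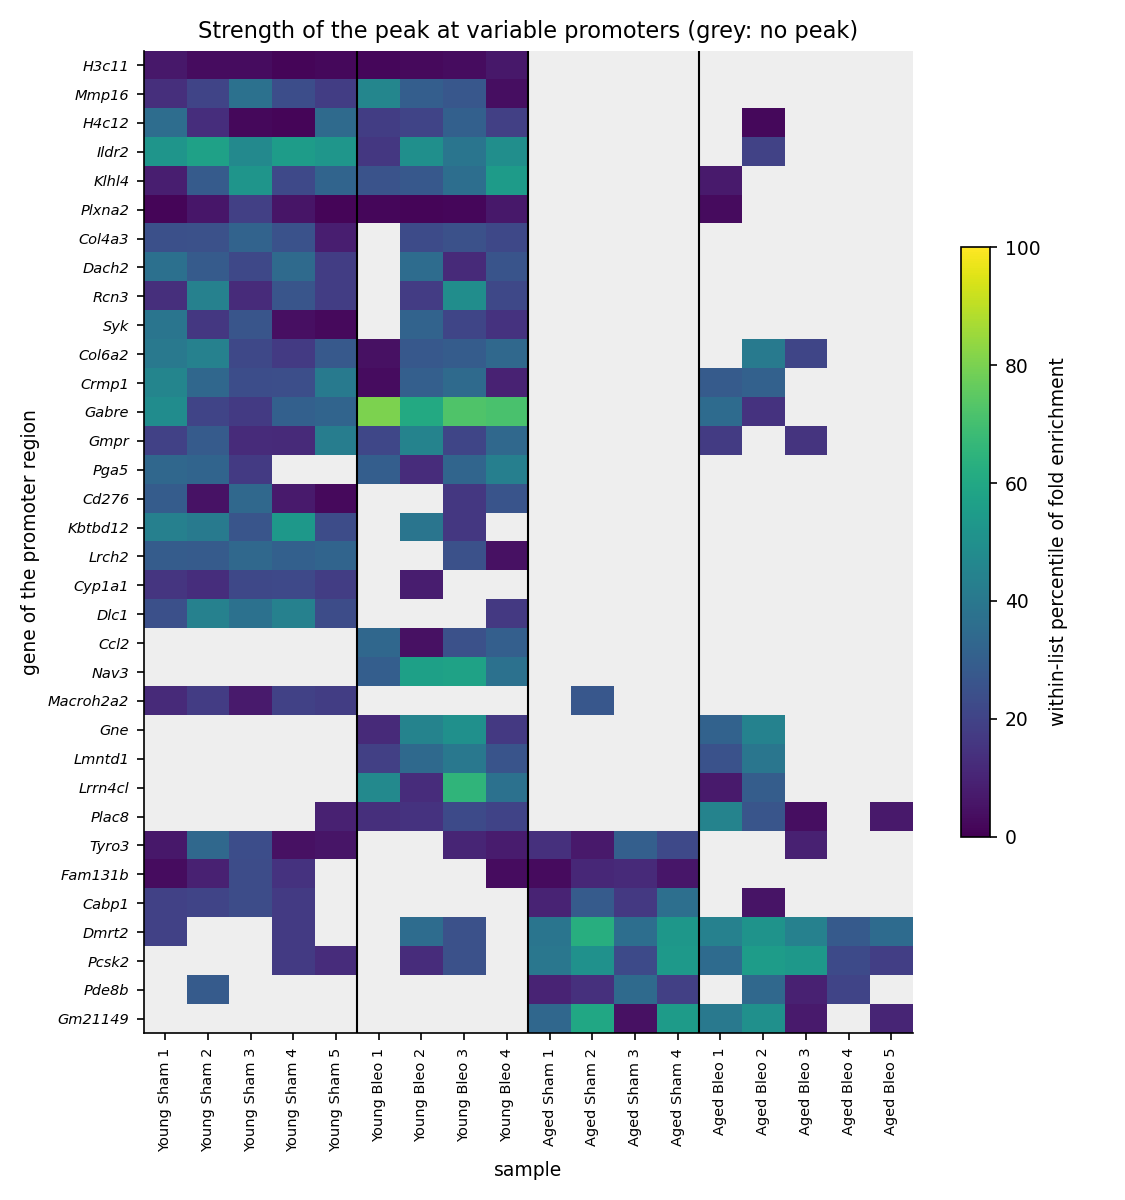
Within-list percentile of fold enrichment (colour, 0 to 100) at the promoters (rows, by gene) with the smallest exact p between the 4 groups, by age or by treatment, in the 18 samples (columns, by group). Grey marks a sample without a peak, and H3c11 and Mmp16 have peaks in all 9 young and in 0 of 9 aged samples.

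The age comparison asked which promoters were called in aged and young ECs irrespective of treatment. At 128 promoter regions a peak was less frequent in aged samples and at 5 more frequent (Fisher's exact test, two-sided, at a p of 0.05 or below), against 4.87% lower and 0.127% higher over all regions. With Benjamini-Hochberg adjustment 0 passed, with a smallest adjusted p of 0.162. With lists of 1 size the split was 30 lower and 42 higher, so the direction of the count depends on the size of the lists. The total was 201 to 223 in place of 133 without Young Sham 5, Young Bleo 1, Aged Sham 4, Aged Bleo 1 or Aged Bleo 2. It rose whichever sample was left out, and the exact p takes different steps with fewer samples. The 128 had a peak at 93 to 120 regions in each young sample, 14 to 37 in each Aged Sham sample, 60 and 66 in Aged Bleo 1 and 2, the largest aged lists, and 2 to 20 in Aged Bleo 3 to 5. At 46 of the 128 neither Aged Bleo 1 nor Aged Bleo 2 had a peak. The codes in the names put 3 Young Bleo and 3 Aged Sham samples in lane 7. Inside lane 7, 121 of the 128 were less frequent in Aged Sham and 0 more frequent. Over all 47338 regions 18664 were less and 2799 more frequent there, and over the 2304 regions lower by age 2178 and 6. At 42 of the 128 (32.8%) all 3 Young Bleo and none of these Aged Sham samples had a peak, against 6.52% of all regions. The opposite pattern held at 0 of the 128 and at 0.338% of all regions. The 128 were chosen from these same samples, which favours that direction, and of all 2304 regions lower by age 35.9% were lost in this way. That contrast also holds the treatment, and 3 samples against 3 cannot give an exact p below 0.1.

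Mmp16 and H3c11 were the 2 of 9504 promoters that separated the ages fully, with a peak in every young and no aged sample. Over all 47338 regions 10 (0.0211%) showed that pattern, so promoters showed it about as often as regions in general. The Mmp16 promoter (chr4:17853028-17853578), of a membrane-bound matrix metalloproteinase, had a peak in 9 of 9 young and 0 of 9 aged samples (exact p = 4.11e-05, adjusted p = 0.162). Its percentiles were 13.6, 20.5, 37.2, 23.5 and 18.2 in Young Sham 1 to 5 and 46.0, 29.9, 27.3 and 3.54 in Young Bleo 1 to 4. The H3c11 promoter (chr13:21783247-21783517) had the same counts but stood at only the 1.27 to 6.53 percentile in the young samples. H3c11 is 1 of a cluster of near-identical histone genes, as are H4c12 and H4c11 among the variable promoters, so reads there are uncertain.

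Behind these, 8 promoters were tied at the next smallest p for a lower share in aged samples, and Ildr2 had the highest median percentile of them. Its region (chr1:166253911-166254445) had percentiles of 52.0, 57.1, 47.1, 55.2 and 52.6 in Young Sham 1 to 5 and 16.4, 49.9, 39.0 and 49.4 in Young Bleo 1 to 4. It had no peak in Aged Sham and stood at 19.9 in Aged Bleo 2 alone (exact p for age = 0.000411, adjusted p = 0.229). Klhl4 (chrX:114474029-114474746) likewise had a peak in 9 of 9 young and 1 of 9 aged samples, at the 8.53 to 54.8 percentile in young samples and 7.42 in Aged Bleo 1. Plxna2 (a plexin, receptor for semaphorins, chr1:194618854-194619198) showed the same counts, but at a median percentile of 2.30.

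Col4a3, Col6a2 and Syk were among the other promoters called mostly in young samples. The Col4a3 and Col4a4 genes, which encode collagen chains of specialised basement membranes, share a promoter (chr1:82586707-82587291) that had a peak in 5 of 5 Young Sham, 3 of 4 Young Bleo and 0 of 9 aged samples, at the 8.22 to 31.8 percentile (4-group exact p = 0.000389, adjusted p = 0.163). Col6a2, a chain of collagen VI (chr10:76623220-76623650), had a peak in 9 of 9 young, 0 of 4 Aged Sham and 2 of 5 Aged Bleo samples. Syk, a cytoplasmic tyrosine kinase (chr13:52582937-52583674), Dach2, a transcriptional cofactor (chrX:113297986-113298423), and Rcn3, an endoplasmic reticulum protein (chr7:45092084-45092375), showed the counts of Col4a3. In contrast to Mmp16, these 3 and Col4a3 had no peak in Young Bleo 1.

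Gabre, a GABA receptor subunit, was strongest after injury in young ECs. Its promoter (chrX:72274449-72275129) had percentiles of 48.7, 20.5, 16.97, 30.6 and 32.2 in Young Sham and 80.4, 60.6, 72.5 and 71.5 in Young Bleo. No Aged Sham sample had a peak, and Aged Bleo 1 and 2 stood at 35.0 and 14.5. The 4-group test of presence, which does not use strength, gave an exact p of 0.00289 (adjusted p = 0.216).

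In the deposited lists 5 promoters were more frequent in aged samples, against 0.127% of all regions, and with lists of 1 size there were 42. Gm21149 (chr5:15476265-15476862) had a peak in 4 of 4 Aged Sham, 4 of 5 Aged Bleo and 0 of 9 young samples (exact p = 0.000411, adjusted p = 0.229), but it is a gene model with near-identical copies and its reads are uncertain. Pde8b, a cAMP phosphodiesterase (chr13:95222758-95223319), had a peak in 7 of 9 aged and 1 of 9 young samples (exact p = 0.0152, adjusted p = 0.693). Dmrt2, a DM-domain transcription factor (chr19:25672181-25672537), had a peak in all 9 aged samples, at the 28.2 to 62.6 percentile, and in 4 of 9 young ones, at 17.01 to 35.5 (exact p = 0.0294, adjusted p = 0.793). Pcsk2, a prohormone convertase (chr2:143545709-143546207), had the same counts and the same p.

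For treatment, 28 promoter regions were more frequent and 35 less frequent with bleomycin, against 2.17% and 1.23% of all regions, and with adjustment 0 passed (smallest adjusted p 1.0). The share of higher calls moved with the processing, to 25 higher and 57 lower with lists of 1 size and to 61 higher and 15 lower inside lanes, and the total of 63 was 95 to 103 without any 1 of 10 samples. That total rose whichever sample was left out, and the exact p takes different steps with fewer samples. The smallest exact p was 0.00337, for 3 regions. Plac8 (chr5:100572118-100572427) had a peak in 4 of 4 Young Bleo and 4 of 5 Aged Bleo samples, against 1 of 5 Young Sham and 0 of 4 Aged Sham. Its percentiles were 13.6, 14.7, 22.6 and 19.98 in Young Bleo 1 to 4, 44.8, 26.5, 3.66 and 6.92 in Aged Bleo 1, 2, 3 and 5, and 9.36 in Young Sham 5. Cabp1, a calcium-binding protein (chr5:115194075-115194504), showed the reverse, with a peak in 4 of 5 Young Sham and 4 of 4 Aged Sham samples, against 0 of 4 Young Bleo and 1 of 5 Aged Bleo. Fam131b (chr6:42324197-42324974) had a peak in 8 of 9 Sham and 1 of 9 bleomycin samples.

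In young mice alone, the balance of gained and lost promoters with bleomycin depended on the size of the lists. Compared with Young Sham, 78 promoter regions were more frequent and 38 less frequent in Young Bleo (exact p of at most 0.05), against 3.98% and 1.96% of all regions, while with lists of 1 size 55 were more and 71 less frequent. At 12 promoters every Young Bleo sample and no Young Sham sample had a peak (Ccl2, Nav3, Pf4, Gne, Fam171a1, Lmntd1, Lrrn4cl, Pde8a, Sox6, Dhx32, Ahnak2 and Celsr1), against 1.01% of all regions, and at 3 the reverse held (Macroh2a2, Sema4b and Onecut3), against 0.473%. Of the 78, 24 were CpG-rich and 54 were not, beside 66 and 62 of the 128 that were lower with age, a difference that was not tested. Leaving out any 1 sample of the 2 groups took the total from 116 to between 19 and 36, where only complete separation can pass the test.

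Ccl2, a chemokine that attracts monocytes, and Nav3, a microtubule-binding protein, were called in Young Bleo only. The Ccl2 promoter (chr11:82035337-82035658) stood at the 33.5, 4.46, 24.98 and 30.2 percentile in Young Bleo 1 to 4 and had no peak in the other 14 samples (4-group exact p = 0.000654, adjusted p = 0.163). Nav3 (chr10:110000677-110001104, midpoint at -501 bp from the TSS) stood at 29.7, 56.9, 57.6 and 37.1 and was likewise absent elsewhere. Pf4 (chr5:90772266-90772640) stood at 33.5, 7.82, 32.6 and 30.2 in Young Bleo, with single peaks in Aged Sham 4 and Aged Bleo 1. Of the platelet markers only Pf4 had a promoter region, and Ppbp, Itga2b, Gp1ba, Gp6 and Gp9 had none in any group.

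Some promoters were called after bleomycin at both ages, but in few aged samples. Gne, an enzyme of sialic acid synthesis (chr4:44083854-44084305), Lmntd1 (chr6:145435494-145436003) and Lrrn4cl (chr19:8850416-8850915) each had a peak in 4 of 4 Young Bleo, 2 of 5 Aged Bleo and 0 of 9 Sham samples (exact p for treatment = 0.00905, adjusted p = 1.0). The aged samples with a peak were Aged Bleo 1 and 2 for all 3 promoters, the samples with the most peaks. Macroh2a2, a histone variant (chr10:61783720-61784096), showed the opposite, with a peak in 5 of 5 Young Sham, 1 of 4 Aged Sham and 0 of 9 bleomycin samples.

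The remaining comparisons share the Young Sham samples. In Aged Sham 14 promoter regions were more and 106 less frequent than in Young Sham (against 0.264% and 4.9% of all regions), and in Aged Bleo 4 were more and 91 less frequent (against 0.201% and 3.01%). With lists of 1 size the split turned in Aged Sham, to 69 more and 31 less frequent, and was 18 and 58 in Aged Bleo. Complete loss, with a peak in all 5 Young Sham samples and none in the other group, occurred at 31 promoters in Aged Sham, where 0.972% of all regions showed it, and at 21 in Aged Bleo, where 0.661% of all regions did. The totals were 35 to 57 in place of 120 when any 1 sample of Aged Sham or Young Sham was left out, and 172, 178 and 199 in place of 95 without Young Sham 5, Aged Bleo 1 and Aged Bleo 2. Both sets, which share the Young Sham samples, included Dlc1, Cyp1a1, Cd276, Kbtbd12 and Lrch2, beside genes described above such as Mmp16 and Col4a3. In Young Bleo these 5 had a peak in 1 of 4 samples for Dlc1 and Cyp1a1 (an oxidative enzyme induced through the aryl hydrocarbon receptor) and 2 of 4 for the other 3. After adjustment 0 promoters passed when Young Bleo, Aged Sham or Aged Bleo was compared with Young Sham, and the smallest exact p, 0.00794, is what complete separation gives for 5 samples against 4 or 5.

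Some variable regions were second promoters of genes with a constant one. Of 498 genes with several promoter regions, 37 had 1 region in every sample and another that varied. Dlc1, a GTPase-activating protein, was open in every sample at chr8:36613604-36614266, at the 77.3 to 86.4 percentile, while its upstream promoter at chr8:36952218-36952645 had percentiles of 24.4, 43.8, 37.2, 43.8 and 23.3 in Young Sham, 16.7 in Young Bleo 4 and no peak elsewhere. Gne was open in every sample at chr4:44072280-44073053, at the 71.7 to 89.0 percentile, apart from the promoter given above. Kdm2b, a histone demethylase, had a constant promoter at a median percentile of 89.5 (chr5:122899938-122900722) and a variable one (chr5:122989080-122989487) in 5 of 5 Young Sham, 2 of 4 Young Bleo, 3 of 4 Aged Sham and 0 of 5 Aged Bleo samples (4-group exact p = 0.00533, adjusted p = 0.248). Psen2, a subunit of gamma-secretase, had a constant promoter at a median percentile of 89.7 (chr1:180255911-180256626) and a second one (chr1:180245929-180246322) called in Young Sham 1 to 4 only.

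The marker and pathway lists held 204 promoter regions, of which 7 varied (3.43%, against 2.62% of promoter regions and 9.52% of all regions), a share near the background. Aplnr, the apelin receptor and a marker of general capillary ECs (chr2:85136129-85136528), had percentiles of 35.8, 47.4, 39.4, 47.5 and 29.4 in Young Sham, 1.81, 24.9, 26.6 and 41.6 in Young Bleo, 24.5, 17.5 and 36.9 in Aged Sham 1 to 3 and 11.8 in Aged Bleo 2. It was thus called in 5 of 5, 4 of 4, 3 of 4 and 1 of 5 samples (4-group exact p = 0.0128, adjusted p = 0.349). Fibin, listed for aerocytes (chr2:110362743-110363207), was called in 4 of 5 Young Sham, 0 of 4 Young Bleo, 1 of 4 Aged Sham and 0 of 5 Aged Bleo samples. Reln and Mmrn1, both known from lymphatic ECs, were called in 4 of 4 and 3 of 4 Young Bleo samples, against 1 of 5 and 0 of 5 Young Sham, 0 of 4 Aged Sham and 2 of 5 and 1 of 5 Aged Bleo. Fosl1, an AP-1 subunit (chr19:5447505-5447889), was called in all 4 Young Bleo and all 4 Aged Sham samples, but in 2 of 5 Young Sham and 1 of 5 Aged Bleo. Ccl2 and Pf4, given above, complete the 7.

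Genes that the study names beside its ATAC-seq data had 16 promoter regions. Of these 9 were in every sample (56.2%, against 80.4% of all promoter regions). That of Aplnr varied (6.25%, against 2.62% of promoter regions and 9.52% of all regions), and these shares were not tested. Kdr stood at the 50.4 to 74.3 percentile in the 18 samples, Tgfbr1, a TGF-β receptor, at 90.2 to 97.1, and Cxcl10 at 22.5 to 69.7. Col4a1, which shares its promoter with Col4a2 on another strand (chr8:11312567-11313075), was called in 16 samples and missed in Aged Bleo 4 and 5. Bmp2, a growth factor of the TGF-β family (chr2:133551993-133552525), was also called in 16, at 22.7 to 45.9 in Young Sham, 53.3 to 66.4 in Young Bleo and 3.31 to 24.9 in Aged Sham, and at 56.0, 57.5 and 11.4 in Aged Bleo 1, 2 and 5. Oas2, an interferon-induced enzyme, was called in 0 of 5 Young Sham, 2 of 4 Young Bleo, 3 of 4 Aged Sham and 3 of 5 Aged Bleo samples (4-group exact p = 0.132), which did not pass.

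Over samples, the share of promoter regions with a peak was 93.1 ± 1.87% for the 5 Young Sham samples (mean ± SD), 93.6 ± 1.41% in Young Bleo (n = 4), 90.3 ± 1.68% in Aged Sham (n = 4) and 89.2 ± 4.55% in Aged Bleo (n = 5). Aged samples were lower by 3.56 percentage points (exact two-sided permutation p = 0.00839, 0.0420 after adjustment over 5 comparisons), but the ranges overlapped, from 82.8 to 93.9% and from 89.99 to 95.0%. Other regions differed by 14.2 percentage points (exact permutation p = 0.0181, adjusted 0.0907). With bleomycin the promoter share differed by -0.687 points (exact permutation p = 0.676). With lists of 1 size the age difference was 0.265 points in the opposite direction (exact permutation p = 0.611), while Aged Sham exceeded Young Sham by 1.26 points (adjusted p = 0.0397) and bleomycin samples were 1.21 points under Sham samples (adjusted p = 0.0397). Without Aged Bleo 4 the age difference was -2.69 points, and its adjusted p passed 0.05 for only 6 of the 18 samples left out in turn.

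**Figure D4:**
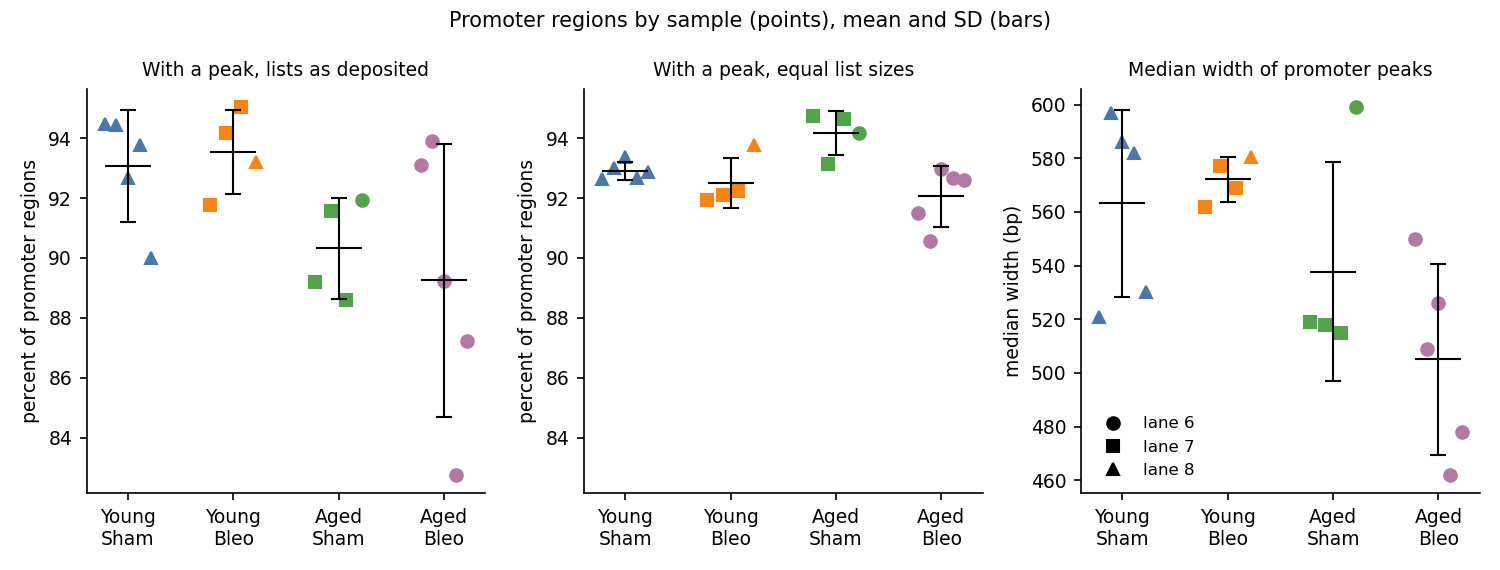
Percent of promoter regions with a peak in the lists as deposited (left) and with every list cut to 1 size (middle), and median width of promoter peaks in bp (right). Points are samples, marker shapes are lanes, bars are group means with SD, and the y axes do not start at 0. Aged samples were lower on the left but not in the middle.

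Promoter peaks were also narrower in aged samples. In Young Sham the median width was 563 ± 35.0 bp, against 572 ± 8.29 bp in Young Bleo, 538 ± 40.9 bp in Aged Sham and 505 ± 35.6 bp in Aged Bleo. Aged samples together were 47.6 bp narrower (exact permutation test, p = 0.00921, adjusted over 5 comparisons 0.0461), while Aged Sham alone differed from Young Sham by -25.4 bp (exact permutation p = 0.349). Other peaks had a median width of 332 ± 19.2 bp in young and 301.1 ± 30.2 bp in aged samples (SD, n = 9 each). Inside lane 7 Aged Sham peaks were 52.0 bp narrower than Young Bleo peaks, with all 3 values below all 3, where the smallest possible p is 0.1. The median percentile of promoter peaks was 2.40 points lower in aged samples (exact permutation p = 0.0109, adjusted 0.0545), which did not pass after adjustment. With lists of 1 size it was 0.474 points higher in aged samples (exact permutation p = 0.192). With bleomycin width differed by -17.1 bp (exact permutation p = 0.384) and percentile by 0.583 points (p = 0.579). The effect of bleomycin was not shown to differ between ages for any of 5 measures, with exact permutation p from 0.200 for width to 0.936 for the promoter share of peaks.

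Promoters in every sample cannot vary in presence, so their strength was compared instead. The fold enrichment of each of the 17432 regions in every list was ranked among these regions within the list, as a percentile that is not that of the preceding paragraphs, and fitted with limma over all of them. Of 7642 promoters, 536 (7.01%) differed between the 4 groups at a Benjamini-Hochberg adjusted p of at most 0.05, against 8.56% of all regions tested. By age 160 rose and 73 fell in rank, against 2.06% and 1.85%, and by treatment 187 rose and 180 fell, against 2.84% and 3.33%. These counts were not stable. With -log10 q in place of fold enrichment 2210 promoters were called between the groups, 424 by age and 2202 by treatment. Over all 17432 regions these were 4852, 1037 and 4637. With 1 sample left out the promoter counts ranged from 253 to 618, 94 to 433 and 182 to 412. The size of the difference at called promoters had a median of 13.4 points by age and 11.3 by treatment. With lane as a covariate 13 promoters differed between the groups and 0 by age or treatment by limma's adjusted p. Of all 17432 regions 54 differed between the groups and 0 by age or treatment. At an unadjusted limma p of at most 0.05 there were 838 of 7642 promoters by age and 602 by treatment. Over all 17432 regions there were 2080 and 1464. The 24 rank calls by age or treatment among the named promoters all kept their direction in that fit, but 0 passed, with limma adjusted p from 0.205 to 0.732.

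Slit2 fell clearly with age. Its promoter (chr5:47982841-47983512) had percentiles of 61.8, 55.5, 64.7, 54.2 and 59.5 in Young Sham 1 to 5 and 51.3, 62.9, 43.8 and 45.4 in Young Bleo 1 to 4. In Aged Sham they were 38.4, 17.2, 18.3 and 16.7, and in Aged Bleo 18.9, 19.6, 34.3, 5.79 and 9.24, so no aged sample reached a young one. The difference by age was -34.9 ± 4.07 points (SE, limma adjusted p = 0.000592). With lane as a covariate the difference was -34.5 points (adjusted p = 0.229).

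Pias4 and Arhgef12 rose with bleomycin in both ages. Pias4, a SUMO ligase (chr10:81167557-81168195), had percentiles of 72.6, 76.2, 78.6, 72.4 and 79.3 in Young Sham and 86.9, 82.7, 87.3 and 87.1 in Young Bleo, and of 71.2, 75.5, 75.3 and 77.6 in Aged Sham and 89.9, 89.4, 89.2, 94.8 and 94.9 in Aged Bleo. The treatments did not overlap at either age, and the difference was 13.5 ± 1.56 points (SE, limma adjusted p = 0.000624). With lane as a covariate the difference was 12.7 points (limma adjusted p = 0.205). Arhgef12, a guanine nucleotide exchange factor (chr9:43105579-43106344), stood at 19.1 to 34.9 in Young Sham, 41.0 to 51.5 in Young Bleo, 31.3 to 37.6 in Aged Sham and 46.2 to 66.4 in Aged Bleo, with a difference of 22.3 ± 3.00 points (limma adjusted p = 0.00150).

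Tmem107 and Selenow were highest in Young Sham. Tmem107 (chr11:69070551-69071191) stood at 22.3 to 30.5 in Young Sham, 4.26 to 11.3 in Young Bleo, 8.72 to 16.5 in Aged Sham and 6.34 to 9.62 in Aged Bleo. Its differences were -7.03 ± 1.62 points by age (SE, limma adjusted p = 0.0269) and -11.2 ± 1.62 by treatment (limma adjusted p = 0.00218). The Young Sham samples lay above all other samples, and the means of Young Bleo and Aged Bleo were close, at 8.60 and 8.41. Selenow, a selenoprotein (chr7:15922175-15922830), had means of 69.9 ± 9.93 for the 5 Young Sham samples (SD), 43.9 ± 11.6 in Young Bleo (n = 4), 45.8 ± 5.82 in Aged Sham (n = 4) and 20.5 ± 5.99 in Aged Bleo (n = 5). It changed by -23.8 ± 3.92 points with age (limma adjusted p = 0.00665) and -25.7 ± 3.92 with bleomycin (limma adjusted p = 0.00238).

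**Figure D5:**
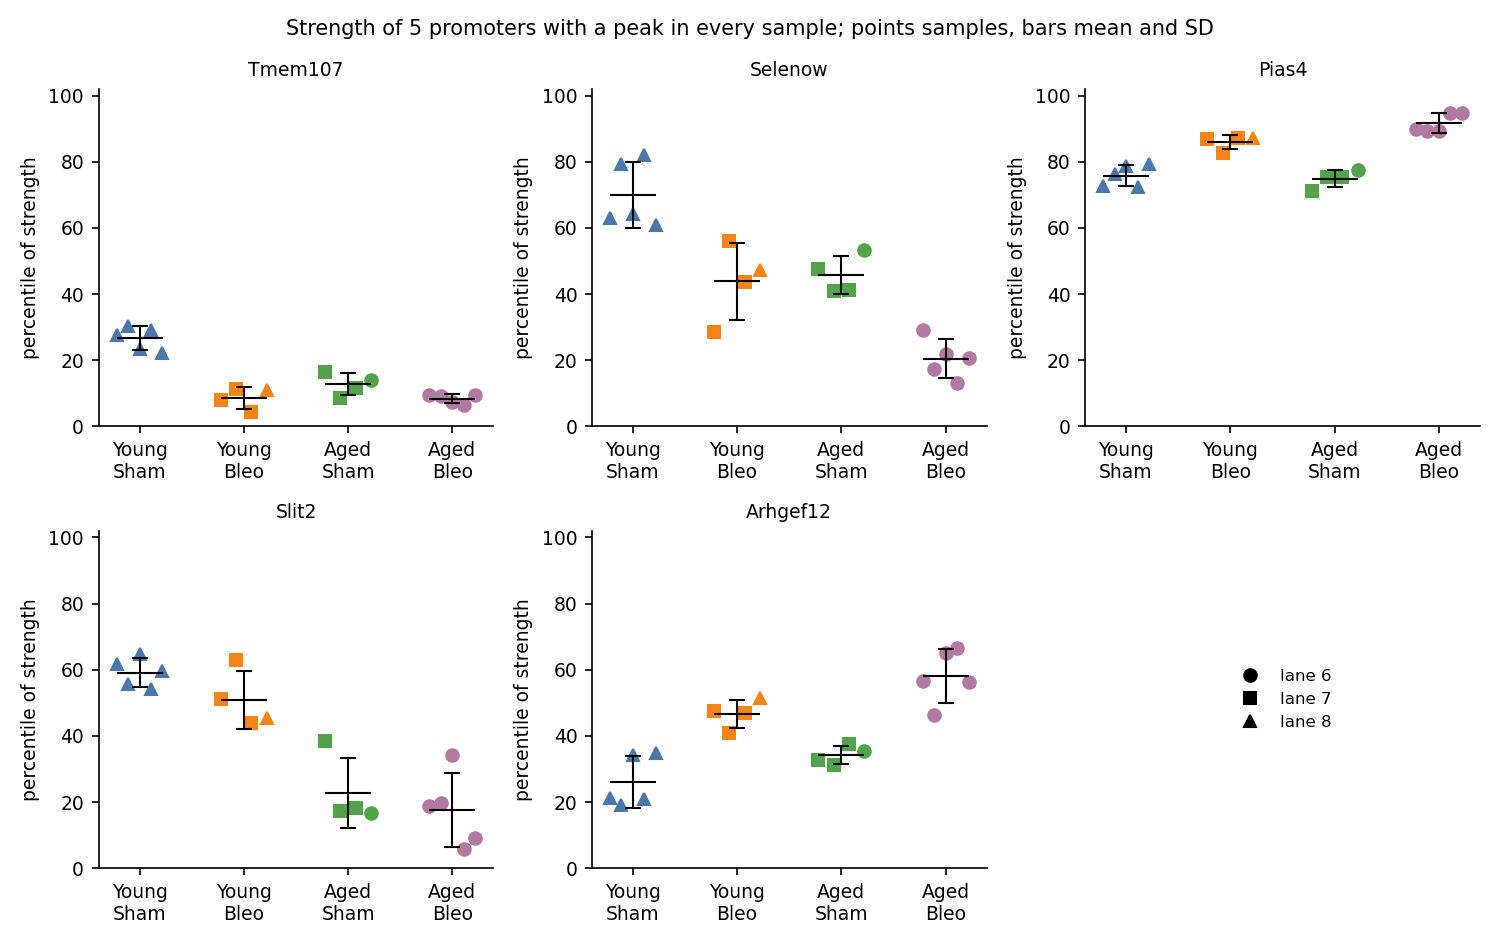
Percentile of fold enrichment (y axis, 0 to 100, among regions with a peak in every sample) at 5 promoters in the 4 groups. Points are samples, marker shapes are lanes, and bars are group means with SD. Slit2 is lower in every aged than in every young sample, and Pias4 and Arhgef12 are higher with bleomycin at both ages.

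Of the 165 listed promoter regions in every sample, 5 rose in rank with age and 1 fell, against 2.06% and 1.85% of all regions tested. Of 27 pan-endothelial regions 2 rose and 0 fell by age. The median age difference was 3.79 points over that list, against 0.919 over all promoters, and over the other lists with 5 or more regions it ranged from -1.01 for the proteasome to 8.36 for arterial, venous and lymphatic genes. The pair that rose were Mef2c, a MADS-box factor of vascular development, by 16.6 ± 3.44 points (limma adjusted p = 0.0190), and Lmo2, an adaptor of endothelial and blood transcription complexes, by 8.97 ± 1.96 points (adjusted p = 0.0228). Lmo2 also rose with bleomycin, by 7.42 ± 1.96 points (adjusted p = 0.0357), with means of 16.0 ± 3.56 for Young Sham, 20.2 ± 1.90 for Young Bleo, 21.8 ± 3.54 for Aged Sham and 32.4 ± 5.37 for Aged Bleo (SD). Dll4, the arterial Notch ligand, rose by 15.7 ± 3.84 points with age (adjusted p = 0.0341). The other two were Polr2a, the largest subunit of RNA polymerase II, of the housekeeping list, by 11.6 ± 2.87 points (adjusted p = 0.0352), and a promoter shared by Ap4m1 and Mcm7, of which Mcm7, a subunit of the replicative helicase, is on the cell cycle list, by 10.8 ± 2.59 (adjusted p = 0.0315). Kdr, by 9.06 ± 4.62 points (adjusted p = 0.255), and Notch1, by 13.6 ± 4.62 (adjusted p = 0.101), did not pass. With lane as a covariate the age difference was 27.2 points for Dll4, 13.6 for Lmo2, -1.81 for Kdr and 26.6 for Notch1. Their limma adjusted p then ranged from 0.286 to 0.967, so none passed.

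With bleomycin, 8 of the 165 listed regions rose in rank and 2 fell, against 2.84% and 3.33% of all regions tested. Cxcl12, a chemokine of capillary ECs, stood at 9.05 to 16.6 in Young Sham and 31.5 to 40.5 in Young Bleo, at 10.7 to 29.9 in Aged Sham and 18.2 to 46.4 in Aged Bleo, and rose by 18.98 ± 3.39 points (limma adjusted p = 0.00536). Cdkn1c, a cell cycle inhibitor, rose by 10.4 ± 2.92 points, Irf9, part of the interferon-activated complex, by 12.7 ± 3.41, and Jag2, a Notch ligand, by 9.13 ± 2.60, with limma adjusted p from 0.0385 to 0.0479. Angpt2, the antagonist ligand of the TIE2 receptor, moved the other way, from 16.8 to 27.2 in Young Sham and 13.3 to 26.3 in Aged Sham to 1.35 to 8.80 in Young Bleo and 1.84 to 14.9 in Aged Bleo, by -14.2 ± 2.29 points (limma adjusted p = 0.00312). Of 26 proteasome regions, Psmb5 changed by -24.0 ± 4.14 points with age and Psmd1 by -17.6 ± 4.91 with bleomycin (limma adjusted p = 0.00850 and 0.0438), and 0 rose. Of 8 basement membrane and 11 immediate early regions in every sample, 0 were called by age or treatment.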

How the data were processed

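Each of the 18 lists came from ECs of 1 mouse. Per the study's methods, Omni-ATAC-seq read pairs were placed on mm10 by the authors with BWA and kept if 1 or both ends were unique. The authors removed duplicates and called peaks with MACS2 (FDR 1%). The deposited fold enrichment, a ratio, sets the fragments at a summit against the local background of its library, and the deposited -log10 p-value and -log10 q-value are those of the authors' MACS2 test. The deposited score, a rescaled q, was not used. None is scaled between libraries, and read counts were not analysed here, so the authors' differential test was not repeated and presence of a peak was tested in its place.

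The 19 mitochondrial peaks were left out. Promoters were defined with RefSeq protein-coding transcripts on mm10 and named for the nearest TSS. Members, gene lists and tests were chosen with earlier results of these data known. Regions were tested over all 47338 with exact tests and called at an exact p of 0.05 or below, beside which Benjamini-Hochberg adjusted values are given, and values per sample with exact permutation tests. Strength was fitted with limma 3.58.1 in R 4.3.3, and the other steps used Python 3.11.15, numpy 2.4.6, pandas 2.3.3 and scipy 1.17.1. The tests were tested on simulated data.

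Depth was recovered from fold enrichment and p, which gave whole fragments, within 0.01, at 99.9865% or more of the peaks solved, up to a -log10 p of 250. The lists cannot show a promoter below the threshold as closed. No pair of lists was a duplicate, the highest Jaccard index being 0.834.

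Named were the 24 promoters with the smallest 4-group p, the 4 with the smallest p in each direction by age and by treatment, list genes with a p of at most 0.05, genes the study names beside its ATAC-seq data, the 5 widest, the 5 strongest, the 6 with the smallest limma p and up to 8 genes with a constant and a variable promoter. Listed genes whose rank changed by limma, and genes in small counts of fully separated promoters, lie outside that rule and were chosen after their values were seen. Some items that these rules name are not reported here. The alternatives tried were a -log10 q floor of 5, equal list sizes, regions in at least 3 lists, peaks that cover at least 50% of a region, a promoter of 2000 bp on either side, other strength scales, lane, the replicate block and each sample left out.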

Additional observations from a re-analysis of the deposited data

Results flagged for a closer look

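Groups of 4 or 5 samples were screened for a single sample far from the rest, in 44 groups, and 3 stood out, where chance gives about 1 in 20 groups. The median width of promoter peaks was 599 bp in Aged Sham 4, against 515 to 519 bp in the other 3 Aged Sham samples. By the codes in the names, Aged Sham 4 was in lane 6 and the others in lane 7. The strength percentile of the Pias4 promoter was 82.7 in Young Bleo 2, against 86.9 to 87.3 in the other Young Bleo samples. The strength percentile of the Slit2 promoter was 38.4 in Aged Sham 1, against 16.7 to 18.3 in the other Aged Sham samples. In each case the gap made up over 0.92 of the range of the group. The cause was not tested for any of these.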

How the results depend on the processing

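The wider and stronger promoter peaks kept their direction and their side of the threshold under all alternatives run for them. So did the narrower promoter peaks in aged samples by the unadjusted exact permutation p, except inside lanes, where it was 0.1, the smallest possible there. The adjusted exact permutation p for width, 0.0461 with all samples, was not followed in this way. The promoter share was judged by its adjusted p, so the stability of width and share cannot be compared. Counts of called promoters were less stable. With lists of 1 size, 72 promoters differed by age, the difference in promoter share was 0.265 points by age, 1.26 for Aged Sham and -0.402 for Young Bleo against Young Sham and -1.21 by treatment, and the difference in percentile by age was 0.474. With peaks covering 50% or more of a region, 424 promoters varied between the 4 groups, 270 by age and 211 in Aged Bleo against Young Sham. With promoters of 2000 bp on either side, which hold more regions, the counts were 469 between the 4 groups, 298 by age, 115 by treatment, and, against Young Sham, 265 for Aged Sham, 219 for Young Bleo and 209 for Aged Bleo. Inside sequencing lanes, 39 varied between the 4 groups and 0 by age or between Young Bleo and Young Sham, where the smallest possible exact p is 0.1 and 0.167, and the promoter share differed by -3.89 points by age and 1.17 by treatment. Replicate numbers did not pair the samples, since same-numbered samples had correlations of -0.196 to 0.174 and 6 of 18 correlated best with their own number. With the replicate block 107 promoters varied between the 4 groups, and 0 in each comparison with Young Sham, where the smallest possible p is 0.125 or, for Aged Bleo, 0.0625 and no call can be made, and the share in Young Bleo differed by -0.289 points.

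For strength, -log10 q in place of fold enrichment gave 2210 promoters between the 4 groups, 424 by age and 2202 by treatment, centred log2 fold enrichment gave 191 by treatment, and lane as a covariate gave 13, 0 and 0. The cause was not tested.

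With each sample left out in turn, the counts ranged from 143 to 223 by age, 69 to 103 by treatment, and, against Young Sham, 35 to 122 for Aged Sham, 19 to 117 for Young Bleo and 94 to 199 for Aged Bleo. The treatment count was over 1.5 times the full count without Young Bleo 3 or 4, any Aged Sham sample or Aged Bleo 2 to 5. Whichever sample was left out, the counts by age and by treatment exceeded the full counts of 133 and 63. The exact p takes different steps with fewer samples, so these rises cannot be assigned to the sample left out. The promoter share ranged from -4.09 to -2.69 points by age, from -1.20 to 0.363 by treatment, where it turned positive without Aged Bleo 4, and from -0.292 to 1.08 for Young Bleo, where it turned negative without Young Sham 5 or Young Bleo 3. Strength counts ranged from 253 to 618 between the 4 groups, 94 to 433 by age and 182 to 412 by treatment. The fewest were left without Young Sham 2 for the 4 groups, Young Bleo 3 for age and Young Bleo 1 for treatment. Of 46 named calls, 44 held with every sample left out, 39 with the block and 9 inside lanes. With lists of 1 size only 13 of them could be tested, and 8 held.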
